A study of Mus musculus with 44 samples.

Results

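Organoids homozygous for a deletion of an enhancer 3' of Cdx2 were compared with organoids heterozygous for the same deletion, over all genes of the RNA-seq count table. The comparison rests on 6 libraries, 3 homozygous and 3 heterozygous, of 20 RNA-seq libraries in that table and 44 samples in the whole mouse series. All 6 came from stomach antrum organoids of the C57BL/6 strain that overexpressed the transcription factor HNF4A, and 3 wild-type libraries with the same overexpression stand beside them. The series asks how intestinal transcription factors give gastric organoids an intestinal programme, and the enhancer was removed in the mouse germline with CRISPR-Cas9. The sources used here do not say how many animals or organoid lines gave the libraries, nor from which species the HNF4A transgene came. P-values therefore measure the spread between libraries, which may be technical in part.

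CDX2 is a homeobox transcription factor that sets up and maintains the intestinal epithelium, and it is normally silent in the adult stomach. Its appearance in gastric epithelium goes with intestinal metaplasia, in which gastric cells take on intestinal features. HNF4A works beside CDX2 at many intestinal genes, among them those of the brush border and of nutrient absorption. A heterozygous organoid still carries an intact copy of the deleted element, and a homozygous one carries none.

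The 6 libraries held between 8323002 and 11465309 counts, and the spread between replicates far exceeded sampling noise. Epithelial transcripts were abundant in all of them: the summed level of Epcam, Cdh1, Krt8 and Krt18 ran from 3181 to 5156 CPM (reads scaled for sequencing depth) in homozygous and from 3107 to 5138 CPM in heterozygous libraries. Of 10 gastric antrum markers, 7 were above 1 CPM in all 6 libraries, with Pgc, Muc6 and Cldn18 abundant, while Gkn2 was near 0 and Muc5ac stayed at or under 4.37 CPM. Hnf4a stood at 356, 374 and 339 CPM in homozygous and 418, 276 and 344 CPM in heterozygous replicates 1, 2 and 3, and the groups overlapped. Reads of the HNF4A transgene and of the endogenous gene cannot be told apart in these counts.

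The libraries of each deletion genotype also differed among themselves. Wnt3a, a secreted Wnt ligand, reached 95.3, 196 and 2072 CPM in homozygous replicates 1, 2 and 3, against 174, 1804 and 3118 CPM in heterozygous ones. Homozygous replicate 3 and heterozygous replicates 2 and 3 were thus above 1000 CPM, the other 3 deletion libraries were well below, and wild-type libraries held at most 4.24 CPM. Rspo3, a Wnt-potentiating R-spondin, followed the same libraries with 5.08, 12.6 and 64.6 CPM in homozygous and 5.50, 53.8 and 69.7 CPM in heterozygous replicates. Nog, which encodes the BMP antagonist noggin, did so too, with 1.79, 5.85 and 74.05 CPM in homozygous and 5.81, 55.3 and 73.9 CPM in heterozygous replicates. Fibroblast markers moved with them: the summed level of 9 markers ran from 32.6 to 903.9 CPM in homozygous and from 81.45 to 1127 CPM in heterozygous libraries. That sum was made mostly of Vim, Col1a1 and Sparc, while Lum was at 0 in all 6 libraries and Dcn and Acta2 did not exceed 0.43 CPM.

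**Figure D1:**
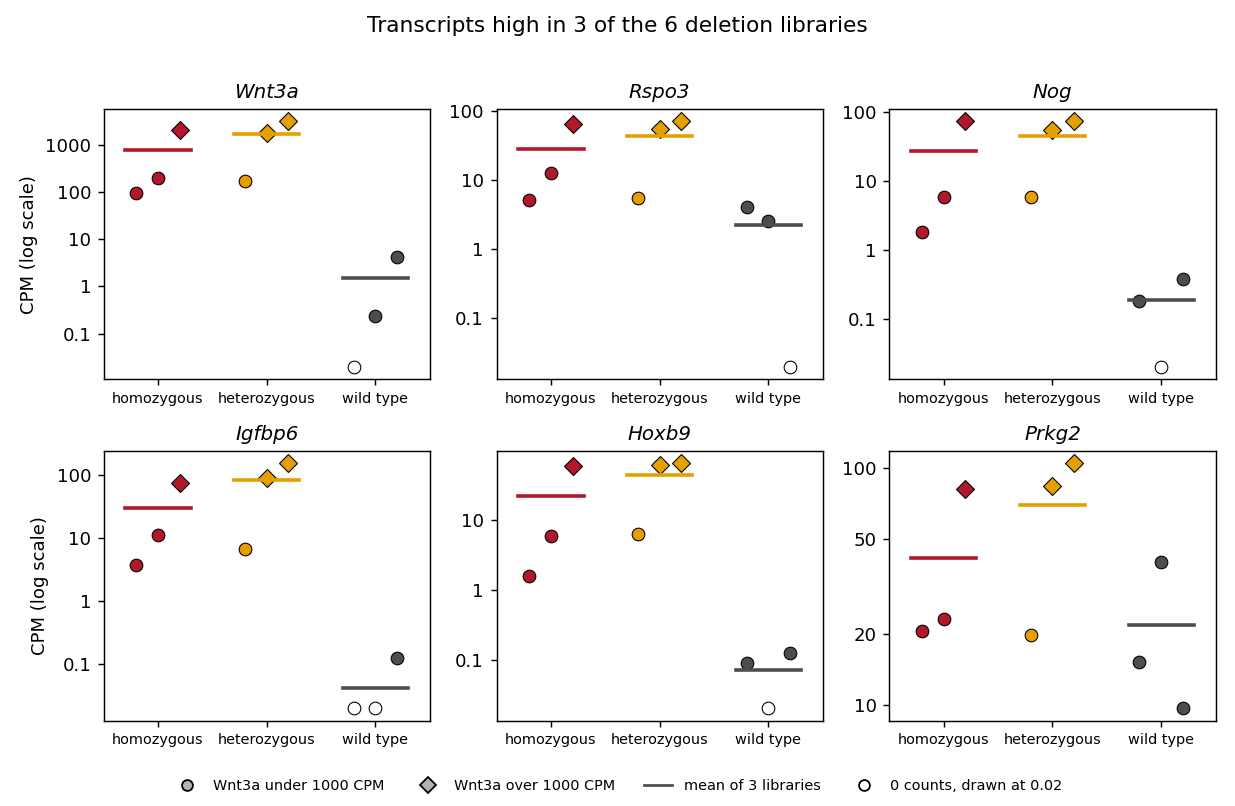
Level of 6 transcripts (CPM, log axis) in homozygous, heterozygous and wild-type libraries. Each point is a library, diamonds are libraries with Wnt3a over 1000 CPM, bars are group means, and open points are libraries with 0 counts. In Wnt3a, Rspo3, Nog, Igfbp6, Hoxb9 and Prkg2 the diamonds, 1 homozygous and 2 heterozygous, lie above the other deletion libraries.

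With 2 of the 3 Wnt3a-rich libraries heterozygous, transcripts of this kind had lower values in homozygous organoids on average without separating the genotypes. All 15 tested genes of a fibroblast and matrix list (24 listed) had a negative log2 fold change, with a median of -0.88, and so had all 9 tested genes of a posterior Hox list (14 listed), with a median of -1.004, where 6715 of all 12593 genes had a negative value. Both medians moved with the libraries used: without homozygous replicate 3 they were -3.42 and -3.62, without heterozygous replicate 3 -0.21 and -0.29, and with a term for Wnt3a-rich libraries -0.23 and -0.36. None of these 24 tested genes passed the test or separated the genotypes completely. Hoxb9, a posterior patterning gene, stood at 1.59, 5.85 and 59.5 CPM in homozygous and 6.33, 60.7 and 65.8 CPM in heterozygous replicates. For some of the genes and lists described below, differences are therefore also given within each library class, and for the others library values or fits alone. Among Wnt3a-poor libraries these are homozygous replicates 1 and 2 against heterozygous replicate 1, and among Wnt3a-rich libraries homozygous replicate 3 against heterozygous replicates 2 and 3. These within-class values rest on 1 library in a group and carry no test.

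Cdx2, the gene next to the deleted enhancer (chr5:147300900-147307249, mm10), had much lower values in homozygous organoids. It stood at 0.199, 1.36 and 0.590 CPM in homozygous replicates 1, 2 and 3, at 18.3, 5.53 and 9.36 CPM in heterozygous ones, and at 16.8, 26.9 and 57.3 CPM in wild type. All homozygous libraries lay below all heterozygous ones, and heterozygous and wild-type values overlapped. In reads, Cdx2 took 21 of 28491621 counts over the 3 homozygous libraries, 323 of 29752661 over the heterozygous ones and 869 of 27997203 over wild type. The means were 0.718 ± 0.593 CPM in homozygous, 11.1 ± 6.53 CPM in heterozygous and 33.7 ± 21.1 CPM in wild-type organoids (SD, n = 3 each), which puts homozygous organoids at 2.13% and heterozygous ones at 32.8% of the wild-type mean.

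The fitted log2 fold change of Cdx2, homozygous over heterozygous, was -3.91 ± 0.76 (standard error), a level 15.1-fold lower, and by edgeR's quasi-likelihood test Cdx2 ranked first of all genes. With Benjamini-Hochberg adjustment over 12593 genes its edgeR adjusted p was 1, whereas DESeq2 called the gene (log2 fold change -3.94, adjusted p = 0.000476). By limma-voom the value was -3.97, with an adjusted p of 1.00. Cdx2 was first by p in most settings, DESeq2 included, but its rank was 18 by limma-voom. By edgeR it was 10 with the replicate block and 45 without homozygous replicate 3. An exact two-sided permutation test over the 6 libraries gave p = 0.1, the smallest that 3 against 3 allows. The difference was -4.53 among Wnt3a-poor and -3.21 among Wnt3a-rich libraries.

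**Figure D2:**
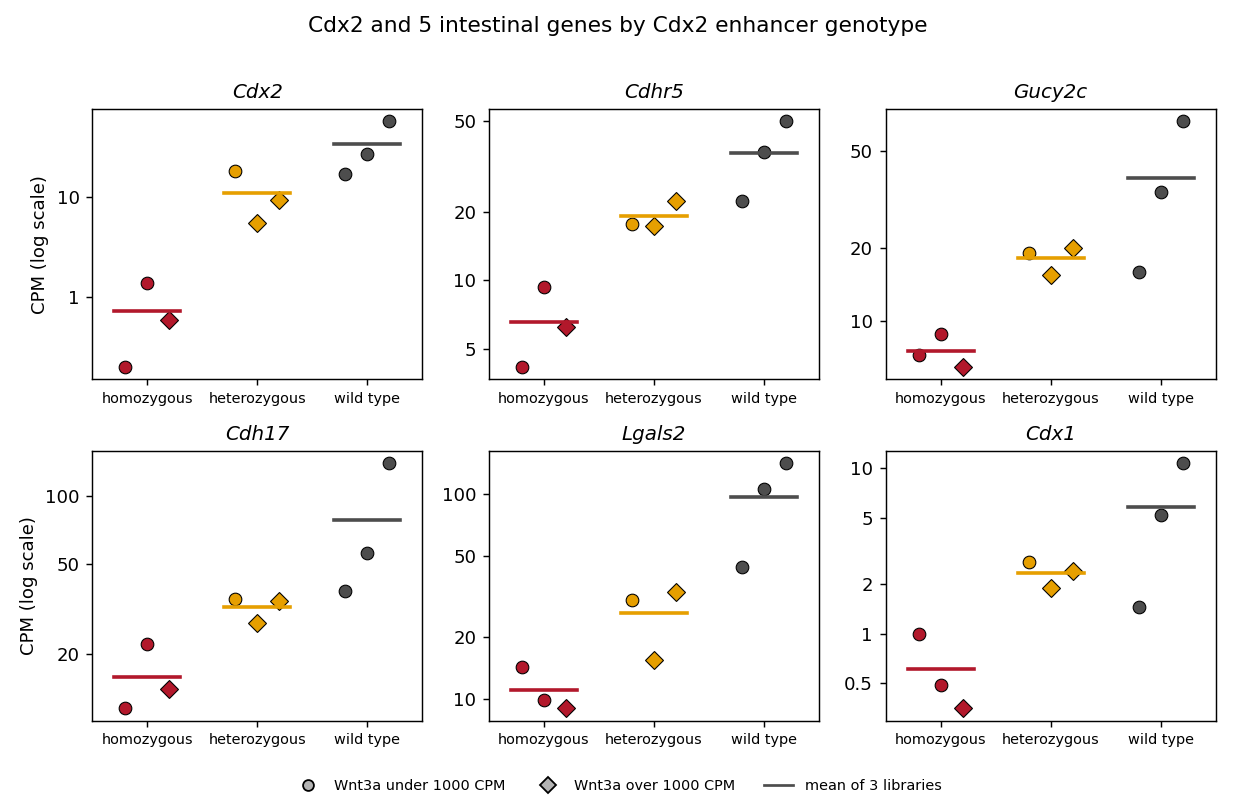
Level of Cdx2, Cdhr5, Gucy2c, Cdh17, Lgals2 and Cdx1 (CPM, log axis) in homozygous, heterozygous and wild-type libraries. Points are libraries, bars are group means, and diamonds mark libraries with Wnt3a over 1000 CPM. In all 6 genes each homozygous library lies below each heterozygous one, the diamonds included.

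Cdx1 (chr18:61018862-61036199), the close relative of Cdx2, stood at 0.997, 0.487 and 0.354 CPM in homozygous and 2.70, 1.87 and 2.40 CPM in heterozygous replicates, against 1.45, 5.19 and 10.7 CPM in wild type. The homozygous values were all lower than the heterozygous ones, and the homozygous ones were near the 0.295 to 0.36 CPM that 3 counts represent in those libraries. The log2 fold change was -1.90 ± 0.75 (edgeR adjusted p = 1), and it was -1.67 and -2.05 within the Wnt3a-poor and Wnt3a-rich classes.

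Genes around Cdx2 on chromosome 5 differed little and in both directions, and none passed the test. Of 15 listed neighbours 10 passed the filter on low counts, 5 with a positive and 5 with a negative log2 fold change, and their median was 0.01 against -0.01 over all 12593 genes. Pdx1, a homeobox factor of antrum and pancreas that lies on the same stretch of the chromosome, stood at 44.8, 38.9 and 27.3 CPM in homozygous and 36.7, 27.8 and 23.1 CPM in heterozygous replicates (0.33 ± 0.26). Lnx2, an E3 ubiquitin ligase gene, stood at 46.3, 51.96 and 40.5 CPM in homozygous and 44.3, 37.5 and 32.4 CPM in heterozygous replicates (0.27 ± 0.17). The groups overlapped in all 10 neighbours, Gtf3a, Mtif3, Polr1d, Pan3, Pomp, Usp12, Rpl21 and Slc46a3 being the others. Slc46a3, a lysosomal transporter, had the most negative value of them (-0.65 ± 0.43), with 4.09, 2.83 and 2.95 CPM in homozygous and 3.42, 5.96 and 6.05 CPM in heterozygous replicates.

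Across the genome no gene passed the test by edgeR (0% of 12593 genes) or limma-voom, and DESeq2 called Cdx2 alone (0.00794%). At an unadjusted p under 0.05, edgeR gave 33 genes (0.262%), of which 22 had lower values in homozygous organoids, limma-voom gave 45 and DESeq2 gave 52. All 3 homozygous libraries lay below all 3 heterozygous ones in 121 genes (0.961%) and above them in 114 (0.905%). For 3 against 3 libraries that differ only by chance, separation has a probability of 0.05 in each direction for a gene. Both shares lie well below that, and the share with an unadjusted p under 0.05 is likewise smaller than 0.05. The 0.961% and 0.905% given beside gene lists are observed shares and not rates expected by chance. What follows on genes other than Cdx2 is therefore a description of values, and differences that pass the test are not claimed for them. In bulk RNA, fewer cells of a type and less RNA per cell cannot be told apart.

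After Cdx2, the gene with the smallest p among those with lower values was Cdhr5 (chr7:141269080-141276795), a protocadherin that links the tips of brush border microvilli. It stood at 4.19, 9.36 and 6.26 CPM in homozygous and 17.6, 17.4 and 22.3 CPM in heterozygous replicates, against 22.2, 36.3 and 49.7 CPM in wild type. The highest homozygous value was well below the lowest heterozygous one, and the log2 fold change was -1.54 ± 0.36 (edgeR adjusted p = 1; DESeq2, adjusted p = 0.683). It was -1.46 and -1.62 within the Wnt3a-poor and Wnt3a-rich classes, so both showed a similar size.

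Gucy2c (chr6:136697284-136781742), the receptor guanylate cyclase for guanylin and uroguanylin, stood at 7.28, 8.87 and 6.50 CPM in homozygous and 18.99, 15.4 and 19.98 CPM in heterozygous replicates, against 15.8, 33.9 and 66.05 CPM in wild type. Within each deletion genotype the values were close together, and the groups did not overlap. Its log2 fold change was -1.27 ± 0.45 (edgeR adjusted p = 1), and -1.22 and -1.41 within the Wnt3a-poor and Wnt3a-rich classes.

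Lgals2 (chr15:78850860-78855529), which encodes a galectin that binds galactosides, stood at 14.3, 9.85 and 8.98 CPM in homozygous and 30.3, 15.4 and 33.3 CPM in heterozygous replicates, against 43.9, 106 and 143 CPM in wild type. Heterozygous replicate 2 came nearest to the homozygous libraries without reaching them. Its log2 fold change was -1.26 ± 0.45 (edgeR adjusted p = 1), and -1.34 and -1.32 within the Wnt3a-poor and Wnt3a-rich classes.

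Cers4, a ceramide synthase, stood at 3.79, 2.34 and 1.54 CPM in homozygous and 4.98, 7.49 and 7.08 CPM in heterozygous replicates (-1.35 ± 0.44). Cdh17 (chr4:11758157-11817905), the liver-intestine cadherin, is described here as a gene called in the CDX2 lines below. It stood at 11.6, 22.1 and 14.1 CPM in homozygous and 35.1, 27.3 and 34.3 CPM in heterozygous replicates, against 37.9, 56.1 and 139 CPM in wild type. The log2 fold change of Cdh17 was -1.02 ± 0.46, and -1.12 and -1.11 within the Wnt3a-poor and Wnt3a-rich classes.

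Other genes among the 12 lower ones with the smallest p are not intestinal markers as a group. U2af1, a splicing factor subunit, and Utp18, a factor of ribosome assembly, differed little (-0.33 ± 0.12 and -0.38 ± 0.15) but their groups did not overlap: U2af1 stood at 60.9, 67.1 and 67.5 CPM in homozygous and 76.99, 87.96 and 78.6 CPM in heterozygous replicates. Insl6, a relaxin-family peptide, Akap12, a kinase-anchoring scaffold, and Nat8l, which makes N-acetylaspartate, were below 7 CPM in all 6 libraries, with log2 fold changes of -1.66 ± 0.45, -1.36 ± 0.48 and -1.96 ± 0.71. Aqp8, a water channel, had 0.498, 0.585 and 1.54 CPM in homozygous and 0.726, 3.15 and 18.5 CPM in heterozygous replicates, so its value of -3.09 ± 1.12 rests largely on heterozygous replicate 3. Its groups overlapped.

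The 12 genes with the smallest p among those with higher values in homozygous organoids had smaller log2 fold changes, from 0.32 (Ldhd) to 1.63 (Kank4). The most abundant was Ldhd, a D-lactate dehydrogenase, at 207, 239.9 and 179 CPM in homozygous and 178, 168 and 152 CPM in heterozygous replicates (0.32 ± 0.14, edgeR adjusted p = 1). Crim1, which encodes a membrane protein that binds bone morphogenetic proteins, stood at 142, 116 and 92.3 CPM in homozygous and 106, 71.1 and 76.4 CPM in heterozygous replicates, and these overlapped. Pptc7, a mitochondrial phosphatase, stood at 70.8, 70.9 and 63.5 CPM in homozygous and 54.1, 55.01 and 51.8 CPM in heterozygous replicates without overlap (0.34 ± 0.12). Obsl1, a cytoskeletal adaptor, stood at 30.00, 28.95 and 34.1 CPM in homozygous and 24.7, 21.97 and 20.2 CPM in heterozygous replicates (0.47 ± 0.16). Zfp385b, Epb4.1l4a, Pla2r1, AA474331, Pcdhgb7, Cnbd2 and Tmem175 complete the set. Tmem175, Kank4 and Crim1 were the 3 of the 12 in which the groups overlapped.

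The promoters of these genes were searched for the hexamer TTTATG, the core to which CDX proteins bind, and for its reverse complement CATAAA. The windows come from RefSeq (GRCm38.p6) and run from 250 bases before to 50 after an annotated start of the gene. Some genes have several windows, and a gene was counted if any of them held the hexamer. The start used for Cdhr5 lies a few bases inside the gene position given above. Of all 27025 genes with such a window 13.6% held the hexamer on either strand, and of 9654 tested genes with one 8.09%. Among the 12 lower genes 7 had a window and 2 of these held it (28.6%), Cdhr5 and Lgals2, while among the 12 higher genes 1 of 8 did (12.5%). Cdx2's own window holds no match. Of the 42 genes called higher in CDX2 lines (described next) 26 had a window and 5 of these held the hexamer (19.2%). Among the 9 genes called lower there, 0 of 7 did. Cdhr5 and Lgals2 are shown because their levels separated the genotypes in both library classes. Clrn3, a small membrane protein called higher in CDX2 lines, is shown as a window with the hexamer on both strands. A window of Wipf1, also called higher there, holds it on both strands too and is not shown. Capitals mark the hexamer, and each sequence reads 5′ to 3′ on the gene's strand, here the minus strand. Cdhr5 is at chr7:141276737-141277036 with the match 39 bases before the start, Lgals2 at chr15:78855480-78855779 with the match 68 bases before it, and Clrn3 at chr7:135528605-135528904 with matches 29 bases before and 6 after it. A match describes these letters and was not tested for binding.
Cdhr5: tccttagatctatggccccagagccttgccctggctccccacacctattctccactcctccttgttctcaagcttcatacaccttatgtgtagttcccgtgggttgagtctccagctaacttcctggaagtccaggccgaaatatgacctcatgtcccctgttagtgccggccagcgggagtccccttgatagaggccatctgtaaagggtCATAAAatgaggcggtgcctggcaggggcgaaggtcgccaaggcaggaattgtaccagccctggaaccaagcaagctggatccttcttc
Lgals2: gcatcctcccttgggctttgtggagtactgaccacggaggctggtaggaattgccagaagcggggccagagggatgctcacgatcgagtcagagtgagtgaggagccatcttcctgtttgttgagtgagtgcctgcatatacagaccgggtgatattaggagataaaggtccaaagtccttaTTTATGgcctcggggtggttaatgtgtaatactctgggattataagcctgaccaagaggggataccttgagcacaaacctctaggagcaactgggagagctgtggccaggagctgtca
Clrn3: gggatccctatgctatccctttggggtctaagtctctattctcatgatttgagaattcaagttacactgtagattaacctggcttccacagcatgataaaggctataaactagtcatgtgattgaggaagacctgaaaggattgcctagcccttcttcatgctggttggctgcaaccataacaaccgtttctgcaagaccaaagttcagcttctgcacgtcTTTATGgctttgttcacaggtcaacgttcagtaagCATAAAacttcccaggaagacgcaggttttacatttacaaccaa

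A separate set of libraries gave another reading of these genes. In it, gastric organoid lines carried lentiviral CDX2 (3 libraries) or GFP (3 libraries), and none of these libraries is shared with the deletion experiment. In the lines, the genes with the smallest p in the deletion experiment had values in the opposite direction. Of the 12 lower genes, 11 were tested in the lines and all 11 had higher values in CDX2 than in GFP lines. Without Cdx2 itself this was 10 of 10, with a median log2 fold change of 2.98, CDX2 over GFP. Of the 12 higher genes, 11 of 12 had lower values in CDX2 lines, with a median of -0.36. Over all 12177 genes tested in both experiments, 6095 had higher and 6080 lower values in CDX2 lines.

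By edgeR 3 of the 11 passed the test in the lines, Cdx2, Cdhr5 and Gucy2c, and none of the 12 higher genes did. Cdhr5 stood at 185, 34.9 and 22.7 CPM in CDX2 lines 1, 2 and 3, against 0, 0.639 and 0 CPM in GFP lines. Gucy2c stood at 116, 38.7 and 43.3 CPM in CDX2 lines, against 0, 0.213 and 0 CPM in GFP lines. Both genes were thus nearly silent in GFP lines, and Lgals2 was not, at 136, 50.4 and 57.1 CPM in CDX2 lines against 15.2, 9.48 and 5.12 CPM in GFP lines. U2af1 and Utp18, which differed little between deletion genotypes, also had small values in the lines (log2 fold changes of 0.14 and 0.13). Akap12 owed its higher value in CDX2 lines to 1 library, with 2.39, 3.18 and 85.1 CPM in CDX2 lines and 2.63, 4.26 and 5.61 CPM in GFP lines.

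The wider sets of non-overlapping genes leaned the same way. Of the genes in which all homozygous libraries lay below all heterozygous ones, Cdx2 left out, 118 were tested in the lines and 85 (72%) had higher values in CDX2 lines, against 50.1% of all genes tested in both. Of the genes in which all homozygous libraries lay above, 111 were tested in the lines and 91 (82%) had lower values in CDX2 lines, against 49.9% of all. The median log2 fold change in the lines was 0.18 for the first set and -0.23 for the second. Among the first set 4 passed edgeR's test in the lines, all higher (Cdhr5, Gucy2c, Cdh17 and Hopx), and among the second 0 did. Genes are not independent of each other, so these shares carry no p-value.

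**Figure D3:**
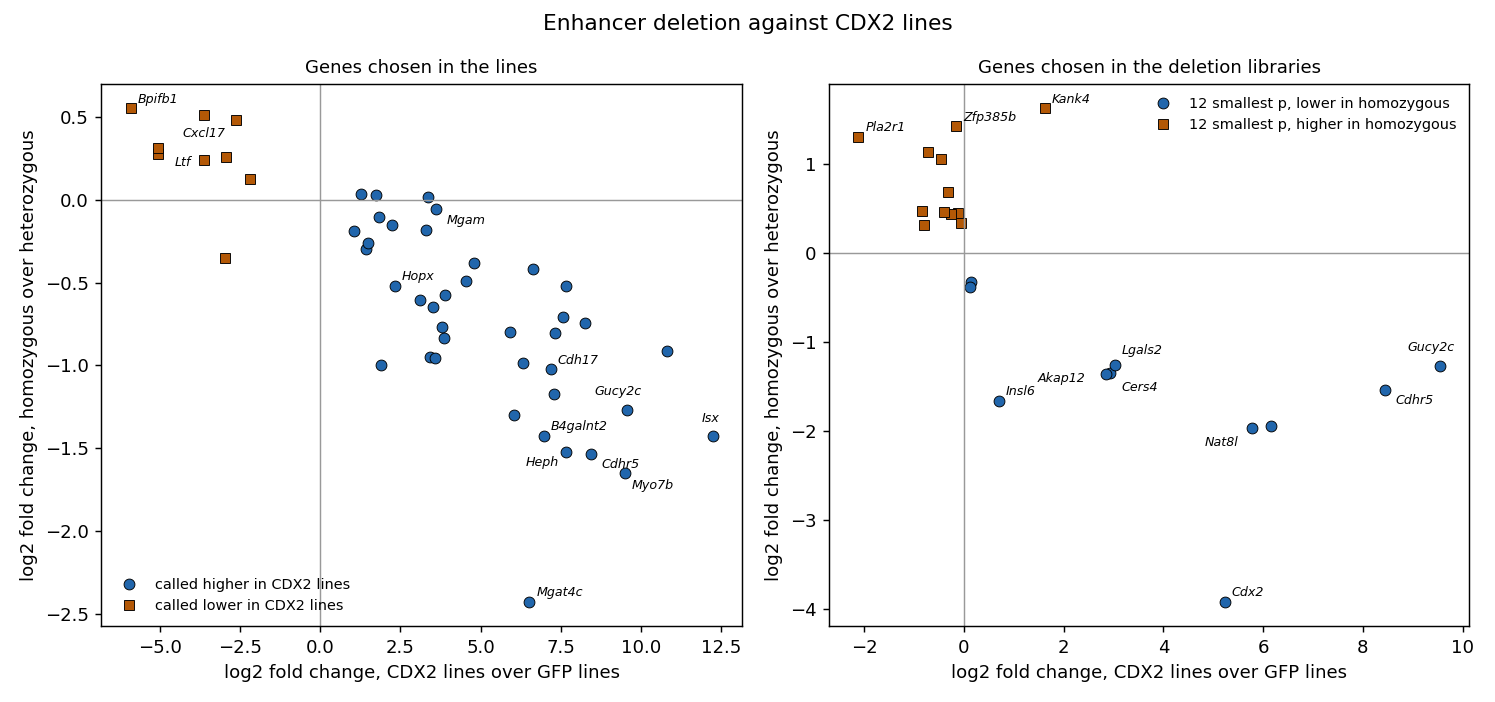
Log2 fold change in CDX2 over GFP lines (x axis) and in homozygous over heterozygous deletion organoids (y axis), with a point for each gene. On the left are the 48 tested genes called in the lines and on the right the 12 genes with the smallest p in each direction in the deletion experiment, without Aqp8, which was not tested in the lines. Of the 39 genes called higher in the lines 36 lie below 0 on the y axis, and the 11 lower genes on the right all lie right of 0 on the x axis.

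Read the other way, the genes that answered CDX2 in the lines had mostly lower values in homozygous deletion organoids. In the lines 43 genes were called higher (0.338% of 12720) and 9 lower (0.0708%) in CDX2 than in GFP organoids. With Cdx2 left out, 42 genes of the first kind remain, of which 39 passed the filter on low counts here (Greb1, Ush1c and Gsdmc2 did not). Of these 39, 36 had a negative log2 fold change in homozygous over heterozygous organoids (92.3%, against 53.3% of all genes tested), with a median of -0.74 against -0.01 over all genes. The filter also counted wild-type libraries, and with the 6 deletion libraries alone 34 of the 39 passed it, with a median of -0.62. The median depends on how the list was drawn in the lines: with line number as a block 578 genes were called there in place of 52 and the median here was -0.17, and with DESeq2 493 were called and it was -0.21, with 72.9% of 303 tested genes negative in either case. Of the 9 lower genes, all tested, 8 had a positive value (5878 of all 12593 genes had one), with a median of 0.28. It was 0.66 within the Wnt3a-poor and -0.07 within the Wnt3a-rich libraries, where 6 of the 9 were negative, and 0.07 without homozygous replicate 2. No gene of either list passed the test, and 4 of the 39 (10.3%, against 0.961% of all genes) had all homozygous libraries below all heterozygous ones. These 4 were Cdhr5, Gucy2c, Cdh17 and Hopx.

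The size of the difference between deletion genotypes went with the size of the response in the lines. The 20 genes with the largest log2 fold changes in the lines (4.56 to 12.2) had a median of -1.004 in homozygous over heterozygous organoids, and all 20 were negative. The other 19 (1.05 to 3.88 in the lines) had a median of -0.30, and 16 were negative. The first set is also less abundant here, with a median mean level of 7.92 CPM against 27.3 CPM, and the part of abundance in this was not tested.

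Among the genes with the smallest p in the lines, B4galnt2, a glycosyltransferase of the Sda blood group antigen, stood at 1.69, 7.31 and 4.84 CPM in homozygous and 6.43, 18.9 and 11.6 CPM in heterozygous replicates, against 20.5, 45.4 and 80.3 CPM in wild type (-1.42 ± 0.64). Its highest homozygous value slightly exceeded its lowest heterozygous one. Myo7b, the myosin of the microvillar adhesion complex, stood at 0.498, 5.07 and 19.8 CPM in homozygous and 39.5, 19.1 and 19.3 CPM in heterozygous replicates (-1.65 ± 1.00). The Wnt3a-poor libraries differed by -4.36 and the Wnt3a-rich ones by 0.05, so the Myo7b difference is found in 1 class. Hopx, an atypical homeodomain protein, stood at 42.4, 41.8 and 23.7 CPM in homozygous and 47.2, 46.5 and 60.5 CPM in heterozygous replicates (-0.52 ± 0.26). Its gap was small among Wnt3a-poor libraries (42.4 and 41.8 against 47.2 CPM) and larger among Wnt3a-rich ones (23.7 against 46.5 and 60.5 CPM).

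Isx, the intestine-specific homeobox gene, was at or below 3.74 CPM in all deletion libraries, with 0.498, 0 and 1.06 CPM in homozygous and 3.74, 0.170 and 0.228 CPM in heterozygous replicates, and the groups overlapped. Mgam, the brush border enzyme maltase-glucoamylase, stood at 44.6, 99.05 and 30.7 CPM in homozygous and 82.9, 62.2 and 35.4 CPM in heterozygous replicates, with a difference near 0 (-0.06 ± 0.45). Prkg2, a cGMP-dependent kinase, stood at 20.5, 23.01 and 81.7 CPM in homozygous and 19.8, 83.7 and 105 CPM in heterozygous replicates. It therefore followed the Wnt3a-rich libraries, and its difference within the classes was 0.13 and -0.20. Heph, the copper ferroxidase of iron export, stood at 5.08, 4.87 and 8.98 CPM in homozygous and 43.9, 4.43 and 5.37 CPM in heterozygous replicates, so its value of -1.52 ± 0.92 comes from heterozygous replicate 1.

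The list's negative median was seen in the Wnt3a-poor libraries, while in the Wnt3a-rich ones it was near that of all genes; the difference between the classes was not tested. The 42 genes summed to 609.5, 680.0 and 856 CPM in homozygous replicates, 1045, 915 and 997 CPM in heterozygous ones and 855, 1239.6 and 2131 CPM in wild type, and the homozygous sums were all below the heterozygous ones. In the fit of the 6 deletion libraries alone, whose filter 34 of the 39 genes passed, the median was -0.62. With a term for Wnt3a-rich libraries added to that fit it was -0.44, with 30 of 34 values negative. Within the Wnt3a-poor libraries the median difference was -0.78 (32 of 39 negative), and within the Wnt3a-rich libraries it was -0.02 (21 of 39 negative, against 6531 of all 12593 genes). Negative values in both classes were found for 15 of the 39, against 1532 of all 12593 genes. That count goes with the many negative values among Wnt3a-poor libraries and does not show agreement between the classes. Without homozygous replicate 3 the median was -1.10, and without heterozygous replicate 1 it was -0.21.

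Of the genes called lower in CDX2 lines, Ltf, the iron-binding lactoferrin, stood at 170.4, 183 and 78.2 CPM in homozygous and 63.4, 144 and 157 CPM in heterozygous replicates (0.24 ± 0.41). Cxcl17, a mucosal chemokine, stood at 178, 117 and 68.7 CPM in homozygous and 76.9, 73.3 and 105 CPM in heterozygous replicates (0.51 ± 0.42). Bpifb1, a secreted mucosal defence protein, had 0.55 ± 0.56 and Lipt2, a lipoyltransferase of mitochondria, 0.13 ± 0.38. In all 4 genes the groups overlapped. The summed level of the 9 genes was 1025, 815 and 536 CPM in homozygous and 505, 617 and 718 CPM in heterozygous replicates, with homozygous replicate 3 inside the heterozygous range.

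Intestinal gene groups taken by function, and not by their answer to CDX2, showed little common direction. Of 20 listed intestinal transcription factors 18 were tested and 10 had negative values, with a median of -0.20. Of these, Cdx2 and Cdx1 separated the genotypes (11.1%, against 0.961% of all genes) and the other 16 overlapped. Cdx2, the gene next to the deleted enhancer, makes up part of that share. Hnf4g, the HNF4A paralog, stood at 10.4, 7.80 and 5.20 CPM in homozygous and 10.8, 8.26 and 8.34 CPM in heterozygous replicates (-0.23 ± 0.38). The zinc-finger factors Klf4, Klf5 and Gata5 had log2 fold changes of -0.19 ± 0.26, 0.23 ± 0.39 and 0.17 ± 0.29. Of the nuclear receptors, Vdr, which binds vitamin D, followed the Wnt3a-rich libraries with 6.58, 3.31 and 43.8 CPM in homozygous and 8.61, 20.5 and 32.3 CPM in heterozygous replicates, while Nr1i2, Nr1h4 and Ppara had 0.33 ± 0.29, 0.26 ± 0.59 and 0.19 ± 0.47. Maf, Prdm1 and Creb3l3 were low, at or under 4.11 CPM in every deletion library.

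Brush border genes had a median of 0.02, with 7 of 15 tested genes negative (16 listed), and Cdhr5 and Cdh17 were the members in which the groups did not overlap (13.3%, against 0.961% of all genes). Both were already counted above among the genes called higher in CDX2 lines. Ezr, the membrane-cytoskeleton linker ezrin, stood at 762, 757 and 592 CPM in homozygous and 804, 602 and 530.3 CPM in heterozygous replicates (0.12 ± 0.20). Cdhr2, the partner of Cdhr5, overlapped between the genotypes and stood at 147, 186 and 98.6 CPM in homozygous and 136, 105 and 112 CPM in heterozygous replicates (0.28 ± 0.32). Digestion and absorption genes had a median of 0.02 with 13 of 27 tested genes negative (37 listed). That median was 0.69 within the Wnt3a-poor libraries (10 of 27 negative) and -0.73 within the Wnt3a-rich ones (24 of 27 negative). Apob, the lipoprotein scaffold, stood at 459, 634 and 522 CPM in homozygous and 392, 567 and 700.1 CPM in heterozygous replicates, and Mep1a, a brush border metalloprotease, at 5.88, 14.5 and 2.95 CPM in homozygous and 4.98, 17.1 and 20.9 CPM in heterozygous ones. Lct, Sis, Fabp2 and Slc2a2 were among the 10 absorption genes whose counts were too low to test. The goblet and guanylin list had a median of -0.16 with 8 of 12 tested genes negative (17 listed), and Gucy2c was its 1 member without overlap (8.33%, against 0.961% of all genes). Gucy2c too was already counted among the genes called higher in CDX2 lines.

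Gastric genes had mostly positive values, which were small and varied with the libraries used. All 11 tested gastric transcription factors (12 listed) had a positive log2 fold change, with a median of 0.33, but the groups overlapped in each. Gata6, an endoderm zinc-finger factor, stood at 119.7, 119 and 76.4 CPM in homozygous and 91.6, 70.7 and 69.9 CPM in heterozygous replicates (0.43 ± 0.20). Foxq1, a forkhead factor, stood at 521, 347 and 200.1 CPM in homozygous and 309, 242 and 256 CPM in heterozygous replicates (0.40 ± 0.30). Homozygous replicate 3, the Wnt3a-rich homozygous library, was the lowest of its group in both genes, and within the Wnt3a-rich libraries the median of the list was -0.23, against 0.38 within the Wnt3a-poor ones. With a term for Wnt3a-rich libraries it was 0.08.

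The pit mucous list, genes of the gastric surface, had 11 of 13 tested genes positive (15 listed) and a median of 0.28, and the gland list 8 of 9 (12 listed) and 0.11, where 5878 of all 12593 genes were positive. The pit mucous median was 0.03 without homozygous replicate 1, 0.76 without heterozygous replicate 1 and -0.03 without the Wnt3a-rich libraries, and the gland median was 0.02 without homozygous replicate 1 and 0.43 without homozygous replicate 3. Muc1, a membrane mucin, stood at 1059, 884 and 575 CPM in homozygous and 678, 516 and 657 CPM in heterozygous replicates (0.44 ± 0.24). Gkn3, a gastrokine, was among the most abundant, at 4953, 2434 and 1735 CPM in homozygous and 2069, 2314 and 3095 CPM in heterozygous replicates (0.28 ± 0.49). Aqp5, a water channel of antral glands, stood at 1715, 1174 and 1166 CPM in homozygous and 1483, 880.3 and 878 CPM in heterozygous replicates (0.31 ± 0.28), and Fut9, a fucosyltransferase, was at or under 3.59 CPM throughout. In these 4 genes the groups overlapped. Atp4a, a subunit of the gastric proton pump, was the 1 gland gene in which all homozygous libraries lay above all heterozygous ones (0.905% of all genes did), at 4.19, 3.80 and 3.07 CPM in homozygous and 2.80, 2.47 and 2.97 CPM in heterozygous replicates (0.42 ± 0.38), and it was named after its values were seen.

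**Figure D4:**
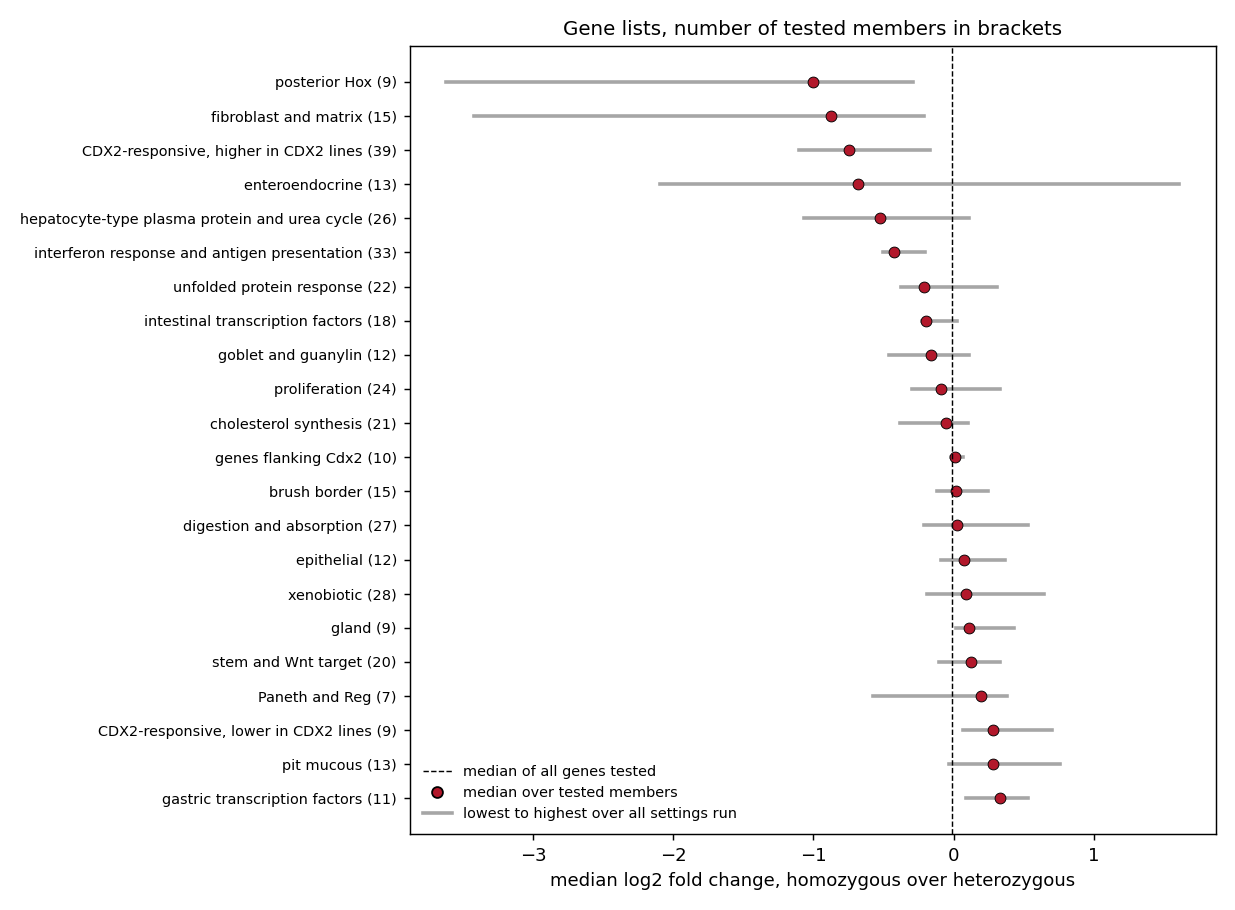
Median log2 fold change, homozygous over heterozygous, of the gene lists with at least 5 tested members (red points, number of members in brackets), with the lowest and highest median over all settings run (grey lines) and the median of all genes tested (dashed line). The lists higher in CDX2 lines, interferon response, fibroblast and posterior Hox lie below 0 throughout, while gastric transcription factors, gland and the list lower in CDX2 lines lie above 0 throughout.

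Stem cell and Wnt target genes had a median of 0.13, with 5 of 20 tested genes negative (22 listed), and -0.10 without homozygous replicate 2. Prom1, a membrane glycoprotein of progenitors, stood at 2658, 2992 and 1985 CPM in homozygous and 2360.0, 2093 and 1889 CPM in heterozygous replicates (0.26 ± 0.18). The proliferation list had 20 of 24 tested genes negative (6715 of all 12593 genes were) with a median of -0.09. That direction turned with the library class: with a term for Wnt3a-rich libraries 6 of 24 were negative and the median was 0.05, within the Wnt3a-poor libraries it was 0.25 (3 of 24 negative) and within the Wnt3a-rich ones -0.24 (22 of 24 negative). Its members Top2a, the DNA topoisomerase, and Plk1, a mitotic kinase, had -0.14 ± 0.34 and 0.26 ± 0.14, and both overlapped. Epithelial genes such as Esrp1, a splicing regulator, and Krt8 had 0.20 ± 0.22 and 0.02 ± 0.35, with a list median of 0.08 over 12 genes.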

How the data were processed

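Of the 44 mouse samples, those used are 3 homozygous, 3 heterozygous and 3 wild-type RNA-seq libraries, with the CDX2 and GFP lines; chromatin samples were not analysed here. The values are raw counts as deposited by the authors, a count for each symbol in each library, 19733 genes with 2946 at 0 in all 20 libraries. STAR and mm10 are named per the submitters' processing notes; the counting program, strand setting and annotation are given in none of them, and reads of overlapping genes may be shared. The labels' protocols describe TRIzol extraction and poly-A libraries. Gene positions come from RefSeq GRCm38.p6.

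The main test was edgeR 4.0.16 under R 4.3.3 (robust quasi-likelihood F test, TMM factors, two-sided, all 9 libraries, filterByExpr with a minimum count of 10 and total of 15, Benjamini-Hochberg threshold 0.05). The lines were fitted apart, with the HNF4A and small intestine libraries. DESeq2 1.42.0 and limma 3.58.1 (voom) were alternatives, as were other scaling, no filter, 6 libraries alone, a replicate block, a term for Wnt3a-rich libraries, and leaving libraries out. A standard error is the size of the log2 fold change over the root of its F statistic. Within-class differences are of mean log2 CPM with a prior count of 2. CPM values are scaled by TMM factors. The code of the fits was run on simulated counts with the same dispersion in all genes and no library classes. That run does not measure how well the tests find differences in these libraries.

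Total counts ran from 8173640 to 11465309 in the 9 libraries, and 3 counts are 0.262 to 0.367 CPM, a floor that covers counting error only. Chi-square per degree of freedom between replicates was 21.7 to 65.4. The labels do not say whether deletion libraries with the same replicate number share an animal or a day, and the main test used no pairing. Deviations from the group means of same-number libraries correlated across genes at 0.53, 0.19 and 0.36, and those of other pairs from -0.47 to 0.21. In replicates 1 and 3 (0.53 and 0.36) both libraries are of the same Wnt3a class, so pairing and class cannot be told apart there. The 0.19 of replicate 2 is below the 0.21 of homozygous replicate 3 with heterozygous replicate 2.

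Named are the intestinal factors and genes flanking Cdx2 that were tested, the 12 genes with the smallest p in each direction with a mean of at least 1 CPM, the 8 and 4 CDX2-responsive genes with the smallest p in the lines, Wnt3a, Rspo3 and Nog, and of each list the genes with the smallest p and highest mean. Others (Lgals2's and Clrn3's promoters, Heph, Cdhr2) were chosen after their values were seen, as were the comparisons of the 12 genes in each direction and of the non-overlapping sets with the lines and the split of CDX2-responsive genes by size. Some genes the rule names are not reported here. The members, lists and tests were chosen with earlier results of these data known.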

Additional observations from a re-analysis of the deposited data

How the results depend on the processing

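The count of genes called stayed at 0 in every setting run with edgeR and limma-voom and was 1 with DESeq2, which called Cdx2 (-3.94, adjusted p = 0.000476). Cdx2 kept its direction in all settings, from -4.79 without homozygous replicate 2 to -3.34 without heterozygous replicate 1, and by edgeR and limma-voom its adjusted p ranged from 0.499 to 1. With the replicate block (paired by replicate number) no gene passed by edgeR, Cdx2 was -3.86, the CDX2-responsive median -0.70, and 292 genes had an unadjusted p under 0.05, against 33 without it; the block changed no call. That number was 1158 without homozygous replicate 3, 733 without heterozygous replicate 1 and 717 without the Wnt3a-rich libraries, again with 0 called by edgeR.

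The median of the genes called higher in CDX2 lines was -0.62 with the 6 deletion libraries alone. It was -0.44 when a term for Wnt3a-rich libraries was added to that fit, and ran from -1.10 to -0.21 when single libraries were left out. Longer lists gave values nearer 0. Choosing them with line number as a block called 578 genes in the lines in place of 52, with a median of -0.17, and DESeq2 called 493, with a median of -0.21; the share with negative values was 72.9% of 303 in both. The list lower in CDX2 lines reached 0.70 without the Wnt3a-rich libraries. It ran from 0.07 to 0.52 when single libraries were left out, and neither list changed sign in the 19 settings fitted. Other gene lists did: among 17 settings the median of the digestion list changed sign in 8, the tuft list in 11, the brush border list in 5, the proliferation list in 4, the Paneth and Reg list in 3, and the goblet and intestinal factor lists in 2 each. The cause of these shifts was not tested.

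With 3 libraries a group the exact permutation p cannot go below 0.1, and genes near 1 CPM rest on few reads.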

Other observations

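Interferon response and antigen presentation genes had mostly negative values. Of 37 listed genes 33 were tested and 30 had a negative log2 fold change (53.3% of all genes had one), with a median of -0.42, from -0.51 to -0.21 over the settings run. None passed the test by edgeR, and 5 separated the genotypes completely (15.2%, against 0.961% of all genes): Oas1a, Gbp7, Psmb9, H2-D1 and Cd74. Oas1a, which senses double-stranded RNA, stood at 3.69, 6.43 and 3.54 CPM in homozygous and 6.74, 8.09 and 9.36 CPM in heterozygous replicates (-0.83 ± 0.34, edgeR adjusted p = 1). H2-D1, a class I antigen-presenting molecule, stood at 45.5, 52.2 and 48.5 CPM in homozygous and 56.96, 56.4 and 67.03 CPM in heterozygous replicates, while H2-K1 overlapped at 357, 384 and 323 CPM in homozygous and 451, 354 and 369 CPM in heterozygous ones. Cd74, the class II invariant chain, stood at 2.29, 2.92 and 3.31 CPM in homozygous and 3.74, 5.19 and 4.57 CPM in heterozygous replicates. Within the Wnt3a-poor and Wnt3a-rich libraries the list's median was -0.23 and -0.32. Gbp7, Psmb9, H2-D1, Cd74 and Cdhr2 were named after their values were seen.

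Other groups varied between libraries within a genotype. Hepatocyte-type plasma protein and urea cycle genes had 24 of 26 tested genes negative (29 listed) and a median of -0.52, but the median deviation of the list from the mean of the 6 libraries was -0.12, 0.85 and -1.61 in homozygous and 0.60, 0.21 and 1.13 in heterozygous replicates, so homozygous replicate 3 stood apart, and without it the median was -0.01 (0.11 without all Wnt3a-rich libraries). Trf, the iron carrier transferrin, stood at 4765, 5472 and 2023 CPM in homozygous and 1241, 4833 and 3582 CPM in heterozygous replicates, and Ambp, a plasma protein precursor, at 4.29, 5.46 and 4.37 CPM in homozygous and 12.6, 3.24 and 7.65 CPM in heterozygous ones. Enteroendocrine genes (13 of 23 listed tested, median -0.68) deviated by -0.70, 1.02 and -1.69 in homozygous and -0.96, 1.10 and 1.13 in heterozygous replicates. Their median was -2.09 without homozygous replicate 2, -0.16 without heterozygous replicate 2 and 1.61 without the Wnt3a-rich libraries. Chgb, a granin, stood at 3.99, 14.1 and 1.06 CPM in homozygous and 6.74, 17.1 and 25.7 CPM in heterozygous replicates. Unfolded protein response genes had 19 of 22 negative and a median of -0.21, which was 0.31 without the Wnt3a-rich libraries, and Hsp90b1, a chaperone of the endoplasmic reticulum, stood at 1088, 1659 and 2336 CPM in homozygous and 1238, 3053 and 2471 CPM in heterozygous replicates, high in the Wnt3a-rich libraries of both genotypes.

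Cholesterol synthesis and xenobiotic genes had medians of -0.05 (13 of 21 negative) and 0.09 (11 of 28 negative). The xenobiotic median was 0.65 within the Wnt3a-poor libraries (4 of 28 negative) and -1.21 within the Wnt3a-rich ones (24 of 28 negative). Cyp2r1, a vitamin D hydroxylase, was the xenobiotic gene with the smallest p, at 0.897, 1.27 and 1.54 CPM in homozygous and 0.519, 0.511 and 0.228 CPM in heterozygous replicates (1.498 ± 0.58, edgeR adjusted p = 1). The Paneth and Reg list (7 tested) had a median of 0.20, and its member Reg3g, an antimicrobial lectin whose reads may be shared with close paralogs, stood at 1282, 601 and 552 CPM in homozygous and 782, 448 and 828 CPM in heterozygous replicates. The tuft list (4 tested) had a median of -0.02, and the immune, endothelial and squamous lists had 3, 2 and 1 tested genes with medians of -0.55, -0.88 and 0.71.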
